A study of Mus musculus with 8 samples.

Results

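*Glycam1* and 7 genes that could mark the source of its transcripts were followed in inguinal white adipose tissue (ING WAT) of mice at 2 ages. The 8 genes were *Glycam1*, *Madcam1*, *Ccl19*, *Ccl21a*, *Cxcl13* and *Cr2*, which are active in lymph nodes, and *Csn2* and *Wap*, which are active in the lactating mammary gland. They are 8 of the 38372 genes for which transcript levels were summed. *Glycam1* was picked because it was much lower at the later age in these same libraries, and the other 7 were added with earlier results of these data known. Levels by age are therefore given as a description without a test. The question was whether *Glycam1* varied between mice together with lymph node genes or together with milk genes. Poly(A)+ RNA was sequenced from 4 C57BL/6j mice at postnatal day 21 (PN21: m1, m49, m138 and m145) and from 4 C57BL/6j mice at postnatal day 98 (PN98: m35, m106, m114 and m125). The labels name no transgene, deletion or treatment in either group. In the study's methods, females were killed at PN21 and males were kept on purified diets to PN98, with or without a Western-style diet from PN42, but the labels give neither sex nor diet of the sequenced mice. The Y-linked gene *Ddx3y* lay between 18.1 and 25.9 FPKM in all 8 mice. *Xist* was 0.247 to 0.832 FPKM at PN21 and 0 to 0.00704 FPKM at PN98. FPKM, the unit of all levels, is the number of fragments scaled to the length of the transcript and to the mapped fragments of the library.

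Lymph nodes receive lymphocytes from the blood through high endothelial venules. Cells of these venules display mucin-like proteins, among them GlyCAM-1 and MAdCAM-1, which lymphocytes bind with homing receptors such as the integrin alpha4beta7. Stromal cells around the venules and in the T cell zone release the chemokines CCL19 and CCL21, the ligands of CCR7, whereas follicular stromal cells release CXCL13, the ligand of CXCR5. Follicular dendritic cells and B cells carry complement receptor 2, the product of *Cr2*. *Glycam1* is also transcribed in the mammary epithelium, where its product is secreted into milk, beside beta-casein (*Csn2*) and whey acidic protein (*Wap*). The inguinal fat pad of the mouse contains both a lymph node and a mammary gland. Whether the node was taken out at dissection is not given in the sources used here.

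The 250 bases before the start sites of *Glycam1* and *Madcam1* are shown because these 2 venule genes separated the ages, and capitals mark letters of the motif GGGNNNNNCC on either strand. This motif is a loose form of the sites that NF-kappaB factors bind, and the lymphotoxin pathway, which maintains high endothelial venules, acts through such factors. Both sequences are from RefSeq on GRCm38.p6, for *Glycam1* chr15:103565082-103565331 on the minus strand and for *Madcam1* chr10:79664309-79664558 on the plus strand.

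Glycam1 promoter: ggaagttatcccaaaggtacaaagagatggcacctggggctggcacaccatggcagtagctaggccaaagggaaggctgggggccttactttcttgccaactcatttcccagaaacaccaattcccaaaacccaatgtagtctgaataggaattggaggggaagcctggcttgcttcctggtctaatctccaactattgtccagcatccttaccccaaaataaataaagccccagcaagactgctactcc

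Madcam1 promoter: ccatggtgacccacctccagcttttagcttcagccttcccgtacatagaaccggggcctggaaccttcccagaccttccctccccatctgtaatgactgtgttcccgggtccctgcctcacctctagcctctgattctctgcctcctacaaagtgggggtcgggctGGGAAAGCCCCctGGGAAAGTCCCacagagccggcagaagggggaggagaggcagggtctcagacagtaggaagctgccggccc

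The *Madcam1* window held 2 runs of matching letters that began 84 and 71 bases before the start site, whereas the *Glycam1* window held no match. All 8 members were found in the RefSeq promoter table, and the motif was present in the window of 4 members (*Madcam1*, *Ccl19*, *Cxcl13* and *Cr2*) and not in that of *Glycam1*, *Ccl21a*, *Csn2* or *Wap*. It was present in 45.8% of all 32851 promoters of this length. A match describes the letters only, and a window without a match says nothing about the factor.

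The chemokine CCL21 is encoded by several near-identical mouse genes, so the stretches in which *Ccl21a* and *Ccl21b* differ are shown to make clear what short reads can separate. The 402 bases of the annotated *Ccl21b* transcript differed from the matching part of *Ccl21a* at 2 positions, T84A and C194T, with the base of *Ccl21a* first and positions counted from 1 at the 5′ end of the *Ccl21b* transcript. Capitals mark the differing base.

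Ccl21a around position 84: tgatggagggggTcaggactgctgc

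Ccl21b around position 84: tgatggagggggAcaggactgctgc

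Ccl21a around position 194: caatcctgttctCaccccggaagca

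Ccl21b around position 194: caatcctgttctTaccccggaagca

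Another 3 annotated genes, *Gm10591*, *Gm13304* and *Gm21541*, carried the 402 bases of *Ccl21b* without a difference. The level of *Ccl21a* is therefore uncertain by the way in which the authors' software shared reads among these 5 genes. The ratio of *Ccl21b* to *Ccl21a* lay between 0.405 and 0.539 at PN21 and between 0.513 and 0.718 at PN98, and the 2 genes followed the same order of mice at PN98.

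The tissue label was met by adipocyte genes in every library, with 817 to 3653 FPKM of *Adipoq* (adiponectin) and 10641 to 37466 FPKM of *Fabp4* (the fatty acid binding protein of adipocytes). The PN98 mouse m35 stood apart from the other PN98 mice in lymphocyte genes. The summed level of 10 B cell genes was 784 FPKM in m35 against 11.2 to 175 in the other PN98 mice and 316 to 760 at PN21. For the members tested and for the gene lists, values without m35 are given as well.

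*Glycam1* is on chromosome 15 (103562759 to 103565081, minus strand, GRCm38), and 1 transcript of it was listed. At PN21 it was 578 FPKM in m1, 805 in m49, 1197 in m138 and 1307 in m145. At PN98 it was 105 FPKM in m35, 25.9 in m106, 3.03 in m114 and 1.83 in m125. All PN98 mice were below all PN21 mice, and on a log scale, though not in FPKM, the PN98 mice were spread more widely than the PN21 mice. *Glycam1* ranked between 115 and 233 by FPKM among the 16100 genes with a mean of at least 1 FPKM in the PN21 mice, and between 1352 and 12295 in the PN98 mice. The mean of the PN21 mice was 972 ± 340 FPKM and that of the PN98 mice 33.9 ± 48.6 FPKM (± SD, n = 4 mice each). The log2 difference of FPKM + 1, as PN98 minus PN21, was −6.11 (SE 1.08) with all 8 mice and −7.10 (SE 0.75) without m35.

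**Figure D1:**
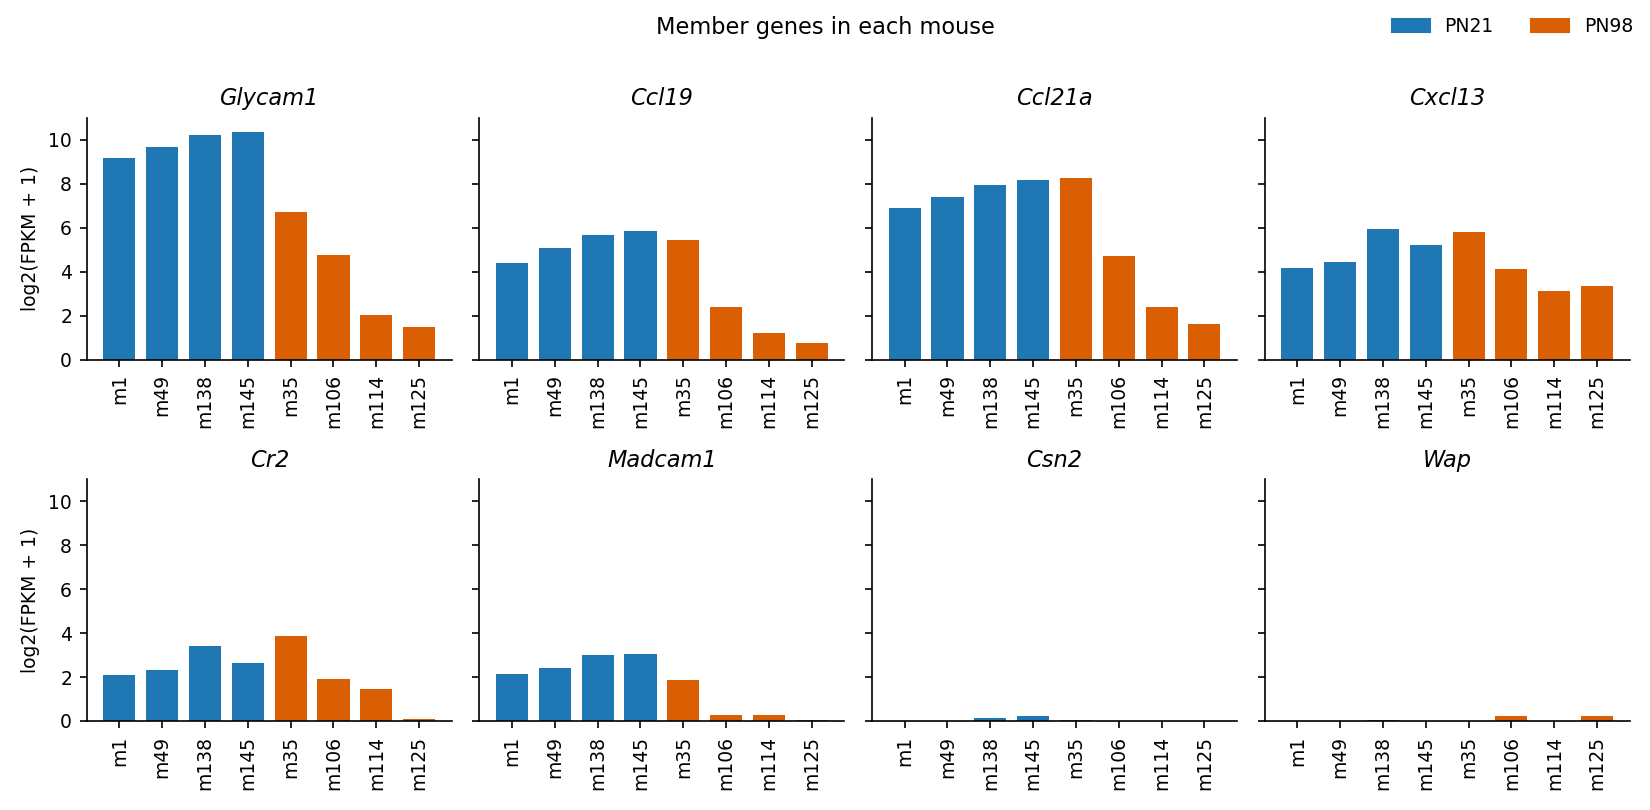
Level of each of the 8 genes as log2(FPKM + 1) in each mouse, with PN21 mice in blue and PN98 mice in orange. All PN98 bars of *Glycam1* and *Madcam1* are below the PN21 bars, m35 reaches the PN21 mice in *Ccl19*, *Ccl21a*, *Cxcl13* and *Cr2*, and *Csn2* and *Wap* are near 0 in all mice.

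*Madcam1*, the second venule gene, is on chromosome 10 (79664559 to 79668537, plus strand). Its levels at PN21 were 3.39 FPKM in m1, 4.35 in m49, 7.02 in m138 and 7.15 in m145. At PN98 it reached 2.64 FPKM in m35, 0.203 in m106, 0.222 in m114 and 0.0243 in m125. The ages did not overlap, and m35 was the PN98 mouse closest to PN21. The PN21 mean was 5.48 ± 1.90 FPKM and the PN98 mean 0.772 ± 1.25 FPKM (± SD, n = 4 mice each), with a log2 difference of −2.03 (SE 0.42) with all 8 mice and −2.45 (SE 0.26) without m35. The pseudocount of 1 weighs on a gene at this level, and with a pseudocount of 0.1 the log2 difference was −3.64. Among all 16100 genes tested, 10% had PN98 levels that were all below the PN21 levels. As *Glycam1* was picked on this contrast, nothing is read from its place among these genes.

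*Ccl21a*, a ligand of CCR7 from venule and T zone stroma, is on chromosome 4. It was 119 FPKM in m1, 167 in m49, 242 in m138 and 285 in m145 at PN21. At PN98 it was 304 FPKM in m35, 25.6 in m106, 4.23 in m114 and 2.07 in m125. PN98 mouse m35 was thus above all PN21 mice, while the other PN98 mice were below all of them. The log2 difference was −3.35 (SE 1.30) with all 8 mice and −4.68 (SE 0.71) without m35.

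*Ccl19*, the second ligand of CCR7, is on chromosome 4 as well. It was 20.3 FPKM in m1, 32.8 in m49, 49.9 in m138 and 55.9 in m145 at PN21. At PN98 it was 42.2 FPKM in m35, 4.27 in m106, 1.33 in m114 and 0.704 in m125. Again m35 was inside the PN21 range and the other PN98 mice were below it. The order of the mice within each age was the same for *Glycam1*, *Ccl19* and *Ccl21a*. The log2 difference of *Ccl19* was −2.79 (SE 0.95) with all mice and −3.79 (SE 0.48) without m35.

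*Cxcl13*, the chemokine of B cell follicles, is on chromosome 5. It was 16.99 FPKM in m1, 20.4 in m49, 59.7 in m138 and 36.6 in m145 at PN21. At PN98 it was 54.2 FPKM in m35, 16.3 in m106, 7.70 in m114 and 9.32 in m125. The ages differed by less than the spread between mice when m35 was kept, with a log2 difference of −0.84 (SE 0.63), and the value was −1.40 (SE 0.46) without m35. It ranged from −1.40 to −0.51 when 1 mouse at a time was left out. Of the 6 lymph node genes, *Cxcl13* kept the highest level in m114 and m125.

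*Cr2*, which marks B cells and follicular dendritic cells, is on chromosome 1. It was 3.20 FPKM in m1, 3.92 in m49, 9.75 in m138 and 5.20 in m145 at PN21. At PN98 it was 13.7 FPKM in m35, 2.71 in m106, 1.73 in m114 and 0.0690 in m125. The highest *Cr2* level of all 8 mice was that of m35, and the lowest was that of m125. The log2 difference was −0.78 (SE 0.73), and −1.46 (SE 0.49) without m35, whereas it was −0.20 without m125. The ratio of *Cxcl13* to *Cr2* lay between 3.95 and 7.04 in 7 mice and was 135 in m125. In bulk tissue, fewer cells of a type and less RNA per cell cannot be told apart for any of these genes.

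The 2 milk genes were at or near 0 and did not pass the filter of a mean of 1 FPKM, so that 6 of the 8 members were in the fit over all genes. *Csn2* was listed at 0 in m1 and m49, at 0.0954 FPKM in m138 and at 0.188 FPKM in m145 at PN21. At PN98 it was listed at 0.0280 FPKM in m35 and at 0 in the other 3 mice. *Wap* was listed at 0.0415 FPKM in m138, at 0.166 FPKM in m106 and at 0.186 FPKM in m125, and at 0 in the other 5 mice. The mouse with the most *Glycam1*, m145, was the one with the most *Csn2*, but m49 had 805 FPKM of *Glycam1* with *Csn2* and *Wap* both at 0.

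**Figure D2:**
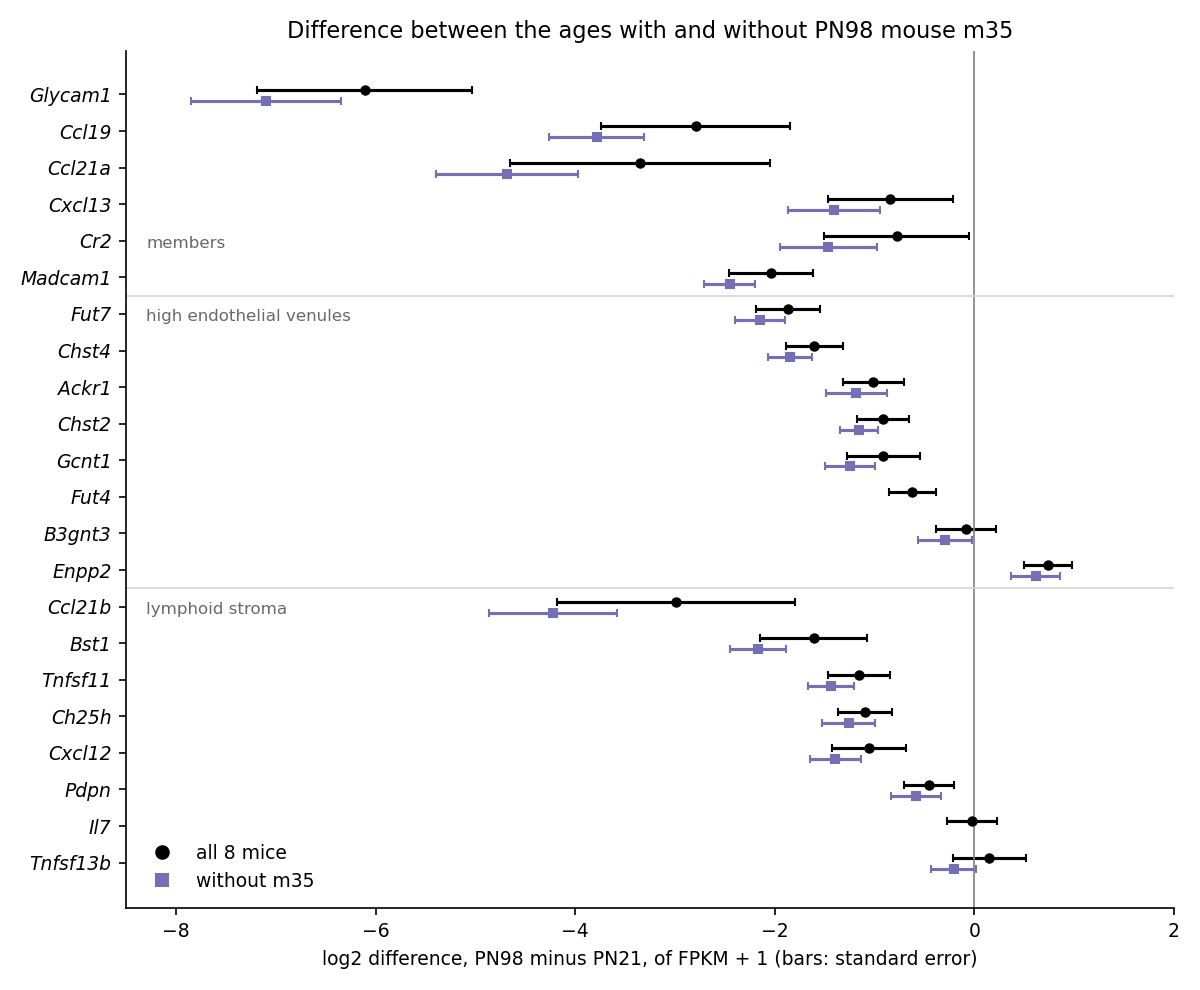
Log2 difference of FPKM + 1, PN98 minus PN21, with its standard error for the 6 members that passed the filter and for 2 lists of related genes, with all 8 mice (black circles) and without PN98 mouse m35 (violet squares). *Glycam1* has the lowest value in both, and the members and most venule and stroma genes move further below 0 without m35. *Fut4* and *Il7* did not pass the filter without m35 and have 1 symbol.

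*Glycam1* and the stromal genes were then compared within each mouse, since the ratio of 2 genes of 1 library does not depend on how much of the sample the node made up if both come from it. The ratio of *Glycam1* to *Ccl21a* was 4.87 in m1, 4.81 in m49, 4.95 in m138 and 4.59 in m145. It was 0.345 in m35, 1.01 in m106, 0.715 in m114 and 0.881 in m125. The ratio was nearly constant at PN21, and the lowest PN21 value was 4.53 times the highest PN98 value. The mouse with the lowest ratio was m35, in which *Ccl21a* was highest. Because *Glycam1* was picked for its difference between the ages, this difference in ratio is a description.

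The other ratios of *Glycam1* separated the ages too. *Glycam1* to *Ccl19* was 23.4 to 28.5 at PN21 and 2.28 to 6.08 at PN98. *Glycam1* to *Cxcl13* was 20.1 to 39.5 at PN21 and 0.196 to 1.93 at PN98, and *Glycam1* to *Cr2* was 123 to 251 at PN21 and 1.75 to 26.5 at PN98. Against the T cell gene *Cd3e*, *Glycam1* was 34.8 to 77.7 at PN21 and 1.73 to 7.04 at PN98. *Glycam1* to *Madcam1* was 170 to 185 at PN21 and 13.6 to 128 at PN98, the narrowest gap between the ages among these 6 ratios, as the lowest PN21 value was 1.34 times the highest PN98 value.

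Among ratios without *Glycam1*, those of *Madcam1* to *Cxcl13* and to *Cr2* separated the ages. *Madcam1* to *Cxcl13* was 0.118 to 0.213 at PN21 and 0.00261 to 0.0486 at PN98, and *Madcam1* to *Cr2* was 0.720 to 1.37 and 0.0750 to 0.352. *Madcam1* to *Ccl21a* was 0.0251 to 0.0290 at PN21, and at PN98 it was 0.00868 in m35, 0.00795 in m106, 0.0117 in m125 and 0.0526 in m114, so that the ages overlapped through m114. *Ccl19* to *Ccl21a* was 0.171 to 0.206 at PN21 and 0.139 to 0.340 at PN98. *Ccl21a* to *Cd3e* was 7.04 to 16.9 at PN21 and 1.96 to 13.1 at PN98. Both of these ratios overlapped between the ages.

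**Figure D3:**
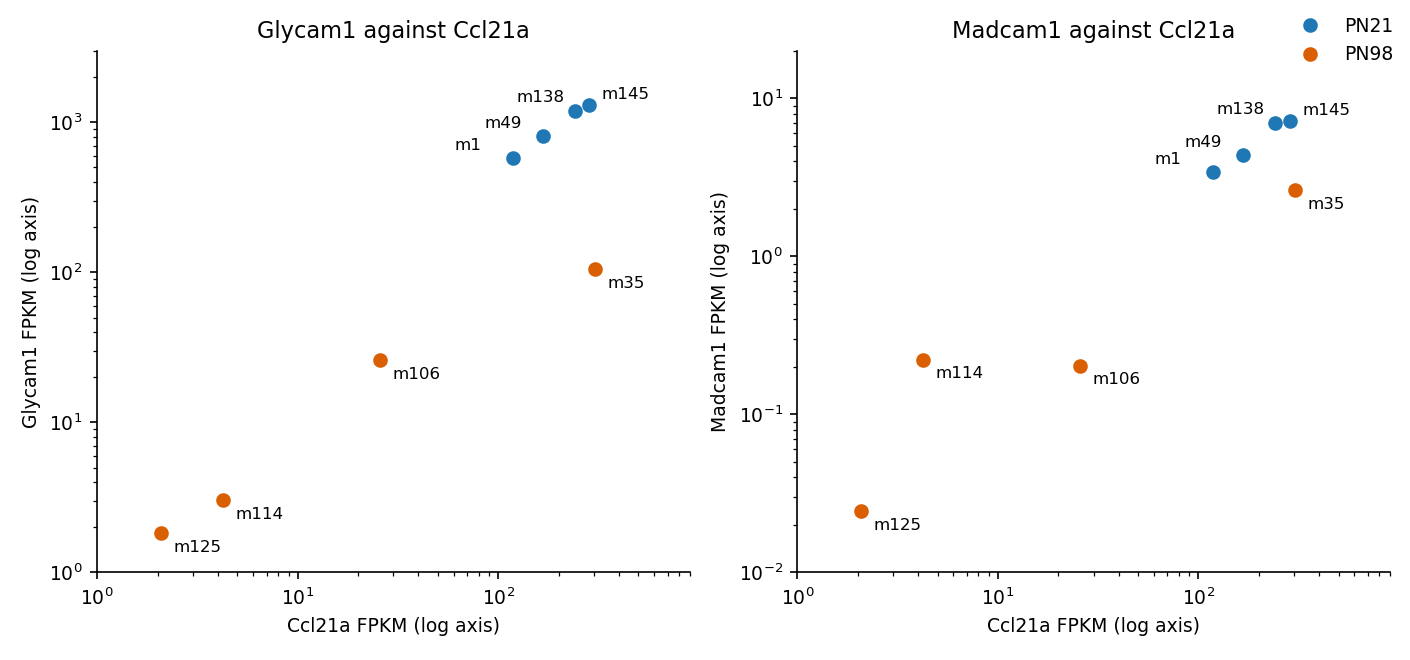
FPKM of *Glycam1* (left) and *Madcam1* (right) against FPKM of *Ccl21a* in each mouse, on log axes, with PN21 mice in blue and PN98 mice in orange. Mouse m35 has 304 FPKM of *Ccl21a*, as much as the PN21 mice, with 105 FPKM of *Glycam1* and 2.64 FPKM of *Madcam1*, below the PN21 mice.

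Other genes of high endothelial venules were taken from a list of 9, of which 8 passed the filter. Of these, 2 had an adjusted p under 0.05 in limma and both were lower at PN98, *Chst4*, which encodes a sulfotransferase that modifies the mucin-like proteins of lymph node venules, and *Fut7*, which encodes a fucosyltransferase needed for adhesion ligands on venules and on leukocytes. *Chst4* was 1.77 FPKM in m1, 3.35 in m49, 3.44 in m138 and 3.31 in m145, against 1.16 in m35, 0.265 in m106 and 0 in m114 and m125. Its log2 difference was −1.60 (SE 0.29, adjusted p = 0.0226, limma). *Fut7* was 3.06, 4.33, 5.84 and 6.52 FPKM in m1, m49, m138 and m145, against 1.82 in m35, 0.518 in m106, 0.282 in m114 and 0.142 in m125. Its log2 difference was −1.87 (SE 0.32, adjusted p = 0.0205, limma). Without m35 the log2 differences were −1.85 (SE 0.22) for *Chst4* and −2.15 (SE 0.25) for *Fut7*. In both genes m35 was below every PN21 mouse, as in *Glycam1* and *Madcam1*. This did not hold for the rest of the 8 venule genes tested. There m35 was inside the PN21 range in 4 and above it in 2, *B3gnt3* and *Enpp2*. Of all genes tested, 2.93% were lower at PN98 by this rule.

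Of the other 6 venule genes, 5 had a lower mean and 1 a higher mean at PN98, and none passed. *Ackr1*, the chemokine-binding receptor of venules, had a log2 difference of −1.01 (SE 0.31), *Chst2*, a second sulfotransferase, −0.92 (SE 0.26), and *Gcnt1*, a glycan-branching enzyme, −0.91 (SE 0.36). *Enpp2*, which encodes autotaxin and is also transcribed in adipocytes, had 0.74 (SE 0.24). The median over the 8 genes was −0.91 beside −0.21 over all 16100 genes. Without m35, 5 of 7 venule genes were lower with an adjusted p under 0.05, when 17.9% of all genes were. When m49, m138, m145, m106 or m114 was left out instead, 0 of the venule genes passed. Few genes were lower in these fits, from 110 of 16145 without m106 to 203 of 16062 without m49. A count of 0 in so short a list therefore says little about venule genes. *Nkx2-3*, a transcription factor of venules in mucosal nodes, was listed at 0 in 7 mice and at 0.0635 FPKM in m49.

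Of 10 genes of lymphoid stroma, 9 were in the table and 8 passed the filter. None had an adjusted p under 0.05 in limma with all 8 mice. Before adjustment 5 had a p under 0.05, beside 27.2% of all genes tested. Their median log2 difference was −1.08. *Bst1*, a surface enzyme of stromal and B lineage cells, was 9.36 FPKM in m1, 9.25 in m49, 16.6 in m138 and 9.15 in m145, against 11.2 in m35, 2.19 in m106, 1.93 in m114 and 0.908 in m125. *Cxcl12*, a chemokine of many stromal cells, was 72.1 to 103 FPKM at PN21 and 84.6 in m35, 45.6 in m106, 31.8 in m114 and 23.0 in m125. *Ch25h*, which encodes the enzyme for the guidance molecule of the receptor EBI2, was the only gene of this list with m35 below all PN21 mice, at 0.874 FPKM against 1.38 to 3.66. In 7 of the 8 genes m35 was inside or above the PN21 range. Without m35, 5 of 7 genes were lower with an adjusted p under 0.05, beside 17.9% of all genes. *Coch* was at 0.428 FPKM in m35 and at most 0.00398 FPKM in the other mice.

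The lymphotoxin pathway connects lymphocytes with venules and stroma, as lymphocytes present lymphotoxin to the receptor LTBR. None of its 11 genes passed with all 8 mice, and 4 had an unadjusted p under 0.05 in limma, against 27.2% of all genes. The ligand gene *Ltb* was 78.8 FPKM in m1, 97.2 in m49, 166 in m138 and 188 in m145, against 156 in m35, 28.7 in m106, 10.4 in m114 and 3.77 in m125. The receptor gene *Ltbr* showed no such pattern, with 28.5 to 43.0 FPKM at PN21 and 25.9 to 35.4 at PN98. *Tnfrsf1a* did not either, with 64.2 to 123 FPKM at PN21 and 89.3 to 103 at PN98 (log2 difference 0.14, SE 0.20). The other 10 genes of the list had a lower mean at PN98. *Relb* and *Nfkb2*, the downstream NF-kappaB subunits, were 17.1 to 33.4 and 18.9 to 36.3 FPKM at PN21, 25.3 and 24.6 in m35, and at most 9.70 and 10.2 in the other PN98 mice. Without m35, 8 of the 11 genes passed, all of them lower, beside 17.9% of all genes.

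Receptors for the members' products and for their ligands were taken from a list of 7 homing genes. *Ccr7*, the receptor of CCL19 and CCL21, was 28.9 FPKM in m1, 32.6 in m49, 61.8 in m138 and 41.2 in m145, against 37.8 in m35, 6.01 in m106, 0.958 in m114 and 0.551 in m125. *Itgb7*, a chain of the integrin that binds MAdCAM-1, was 22.0 to 46.6 FPKM at PN21, 41.6 in m35 and 2.67 to 10.7 in the other PN98 mice. Of the 7 genes, m35 was inside the PN21 range in 5, above it in *Cxcr5* (15.6 against 5.41 to 15.3 FPKM), and below it in *Ackr4* (1.16 against 1.32 to 2.34 FPKM). None of the 7 genes passed in limma with all 8 mice, when 3 had an unadjusted p under 0.05 (27.2% of all genes). Without m35, 6 of 7 passed, all of them lower, beside 17.9% of all genes.

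Genes of B cells and T cells moved with the members in the PN98 mice. All 10 B cell genes and all 11 T cell genes had a lower mean at PN98, with medians of −1.89 and −2.25, as did 67.1% of all genes. None passed in limma with all 8 mice. Before adjustment 0 of the 10 B cell genes and 8 of the 11 T cell genes had a p under 0.05, beside 27.2% of all genes. Without m35, all 10 and all 11 were lower with an adjusted p under 0.05, beside 17.9% of all genes. The summed FPKM of the 11 T cell genes was 311 to 745 at PN21, 609 in m35, 102 in m106, 22.8 in m114 and 15.7 in m125. The part of the amount of lymphoid tissue in the members' levels was not tested.

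**Figure D4:**
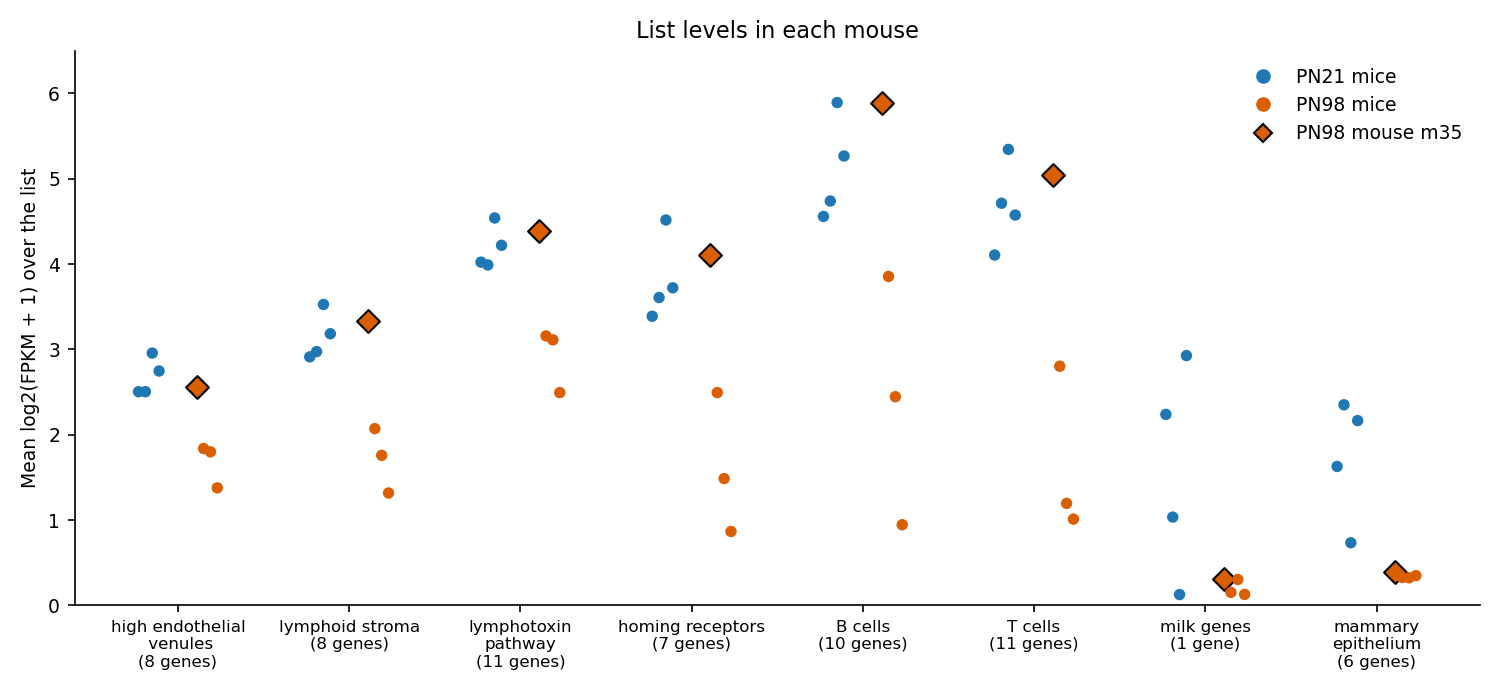
Mean log2(FPKM + 1) over the genes of 8 lists in each mouse, with the number of genes that passed the filter, PN21 mice in blue, PN98 mice in orange and PN98 mouse m35 as a diamond. In the 6 lists of lymph node and lymphocyte genes m35 lies among the PN21 mice, at 5.89 for B cells against 4.56 to 5.89 at PN21, and in the mammary epithelium it lies below them.

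A comparison with each age at the same lymphocyte level was added after the data were seen, with the mean of the B cell and T cell scores as a covariate in the fit over all genes. The log2 difference of *Glycam1* was then −3.70 (SE 0.35) and that of *Madcam1* −1.21 (SE 0.30). The values of *Ccl19* and *Ccl21a* were −0.69 (SE 0.35) and −0.41 (SE 0.36), and those of *Cxcl13* and *Cr2* were 0.46 (SE 0.38) and 0.83 (SE 0.27). In this fit 0.441% of all genes were lower at PN98 with an adjusted p under 0.05, and 0 of the 8 venule genes passed in limma, when 3 had an unadjusted p under 0.05, as did 17.8% of all genes. Since the lymphocyte genes differ between the mice in part by age, age and this score are not separate in the 8 mice.

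Milk and mammary genes were examined beside the members. Of 9 milk genes other than *Csn2* and *Wap*, only *Wfdc18*, which encodes a small secreted protein of the mammary gland, passed the filter. It was 3.72 FPKM in m1, 1.05 in m49, 0.0918 in m138 and 6.61 in m145, and 0.0933 to 0.242 FPKM at PN98. *Csn3* (kappa-casein) was 1.96 FPKM in m1 and 2.05 in m145 and at most 0.269 in the other 6 mice. *Csn1s1* and *Csn1s2b* were listed at 0 in all mice. The PN21 mouse m138, which had the second highest *Glycam1* level of 1197 FPKM, had the lowest PN21 level of *Wfdc18*. It was also lowest at PN21 in summed mammary epithelium genes, at 5.50 FPKM against 19.4 to 34.9 in the other PN21 mice.

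Of the 9 mammary epithelium genes, 6 passed the filter and 2 had an adjusted p under 0.05, both lower at PN98, beside 2.93% of all genes. *Epcam*, which encodes an adhesion protein of epithelial cells, was 1.19 to 2.62 FPKM at PN21, 0.964 in m35 and 0.0421 to 0.144 in the other PN98 mice (log2 difference −1.16, SE 0.26, adjusted p = 0.0422, limma). *Prlr*, the prolactin receptor gene, was 1.83 to 3.87 FPKM at PN21 and 0.408 to 1.14 at PN98 (log2 difference −1.07, SE 0.22, adjusted p = 0.0356, limma). With median of ratios scaling or scaling to nuclear genes, only 4 genes of this list reached the filter, and 0 of these 4 had an adjusted p under 0.05. Without m35 the same number of genes, 2 of 6, were lower with an adjusted p under 0.05, beside 17.9% of all genes. The log2 differences were then −1.37 (SE 0.20) for *Epcam* and −0.97 (SE 0.23) for *Prlr*. In m35 all 6 genes were below the PN21 range, but *Epcam* was far higher in m35 than in the other PN98 mice. Among the adipocyte genes, m35 was within the range of the other PN98 mice in *Adipoq* (2696 FPKM against 2512 to 3653). The same held for the lipid droplet genes *Cidec* (2008 FPKM against 1613 to 2443) and *Plin1* (18.2 against 9.63 to 20.2). It was below the other PN98 mice in *Fabp4* (27521 FPKM against 32175 to 37466), *Cfd* (3353 against 4202 to 12288) and *Pparg* (57.5 against 63.0 to 147).

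*Glycam1* separated the mice by age, so no correlation over the pooled mice is read as a relation. Each age was centred on its mean, and *Glycam1* was compared with 6 list scores over the 8 mice by Pearson's r and Spearman's rho with two-sided exact permutations within ages, which cannot give a p below 0.00174. Values adjusted by Benjamini-Hochberg are over the 6 relations. For B cell genes r was 0.96 (p = 0.00347, adjusted 0.0104, exact permutation) and rho 0.93 (p = 0.0278, adjusted 0.0556). For T cell genes r was 0.97 (p = 0.0122, adjusted 0.0182, exact permutation) and rho 0.88 (p = 0.0799, adjusted 0.120). For lymphoid stroma r was 0.93 (p = 0.00521, adjusted 0.0104, exact permutation) and rho 0.90 (p = 0.0139, adjusted 0.0417). For the other venule genes r was 0.88 (p = 0.00521, adjusted 0.0104, exact permutation) and rho 0.83 (p = 0.0104, adjusted 0.0417).

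For the milk list, which held *Wfdc18* alone, r was 0.01 (p = 0.962, adjusted 0.962, exact permutation) and rho 0.21 (p = 0.476). For mammary epithelium r was −0.01 (p = 0.962, adjusted 0.962, exact permutation) and rho 0.24 (p = 0.441). The mammary epithelium score was 0.734 to 2.35 at PN21 but 0.324 to 0.397 at PN98. The milk score was 0.127 to 2.93 at PN21 but 0.129 to 0.313 at PN98. Both scores thus varied mainly at PN21, whereas *Glycam1* varied on the log scale mainly at PN98. An r near 0 therefore cannot show whether *Glycam1* follows these 2 lists. Whether the relation to lymph node lists differs from that to milk genes was not tested. The 2 mice farthest from the median were m35 and m125 in each of the 4 lymph node and lymphocyte lists. Without these 2 mice r was 0.89 for B cells, 0.89 for T cells, 0.69 for lymphoid stroma and 0.45 for venule genes, so that the relation to venule genes rests largely on m35 and m125. Without m35 alone r was 0.90, 0.92, 0.80 and 0.65 in the same order, and no adjusted p was under 0.05. The lists share mice and are not independent of each other.

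The other members followed *Glycam1* within ages to different degrees, given here without a p. The age-centred r was 0.99 for *Ccl21a*, 0.96 for *Ccl19*, 0.91 for *Cr2*, 0.88 for *Cxcl13* and 0.83 for *Madcam1*, against 0.32 for *Csn2* and −0.30 for *Wap*. The last 2 rest on values under 0.2 FPKM.

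Among all genes tested, the 10 with the highest age-centred r with *Glycam1* over the 8 mice were *Ccrl2* (0.99), *Bcl11a* (0.99), *Bend5* (0.99), *Cd8b1* (0.99), *Ccl21a* (0.99), *Trbc2* (0.98), *Ofd1* (0.98), *Cd3g* (0.98), *Nop56* (0.98) and *Trbc1* (0.98). *Cd8b1*, *Cd3g*, *Trbc1* and *Trbc2* encode parts of the CD8 coreceptor and of the T cell receptor complex. This likeness is one within ages and need not extend to the difference between them, as *Ccrl2* had a log2 difference between the ages of 0.22 and *Ofd1* one of −0.09. *Trbc2* was 116 FPKM in m1, 192 in m49, 271 in m138 and 211 in m145, against 218 in m35, 34.2 in m106, 5.66 in m114 and 5.41 in m125.

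When the ages were not centred, the 10 genes closest to *Glycam1* over the 8 mice were *Gm14098*, *Nop58*, *Ccdc163*, *A630023P12Rik*, *Gm9761*, *Ssb*, *Amigo3*, *Gm12355*, *Hmgb2* and *Gm13160*, all with lower means at PN98. This order reflects the separation of the ages, for which *Glycam1* was picked, as well as the spread within them, and is read no further. By the age-centred measure *Ccl21a* was at rank 5 of 16099 and *Ccl19* at 92, before *Cr2* at 461, *Chst4* at 774, *Fut7* at 793, *Cxcl13* at 816 and *Madcam1* at 1327.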

How the data were processed

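Per the study's methods and the submitters' processing notes, the authors processed base calls with CASAVA 1.8.2, mapped paired-end reads to mm10 (GRCm38) with STAR 2.3.0 and quantified transcripts with Cufflinks 2.1.1. They deposited 1 FPKM value per transcript and mouse. In 40441 of the 91969 deposited transcripts at least 1 FPKM value had lost its decimal mark. Decimals were restored from the row SD, average and score beside the values, for which 1 reading remained in 40326 transcripts. A further 20, *Glycam1* among them, were taken from values with intact decimals in the deposited comparison of the ages, and 95 were left out. All 5012 restored transcripts that also stand in that comparison had equal values in all 8 mice. The authors' fold changes and p-values in the comparison file were not used. No column of sample values was without a sample.

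FPKM was summed per gene by GENCODE M21 (38372 genes). The 16100 genes whose mean reached 1 FPKM were compared as log2(FPKM + 1), PN98 minus PN21, with limma 3.58.1 in R 4.3.3 and Benjamini-Hochberg adjustment over all genes tested, and the fit was tested on simulated data. The members and lists were chosen with earlier results of these data known. Named were the 8 members, list genes with an adjusted p under 0.05 or otherwise some of the higher genes of a list, and the 10 genes most like *Glycam1* by each measure. A few list genes at or near 0 or at odds with their list, and those that describe m35, were named after their values were seen. Alternatives were a pseudocount of 0.1, no filter, median of ratios scaling, scaling to nuclear genes, single transcripts with the study's filter, leaving out each mouse and, added after seeing the data, a lymphocyte covariate. The files used here hold no read counts, so neither depth nor counting error can be stated. Each library is 1 mouse, so the spread is between mice.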

Additional observations from a re-analysis of the deposited data

Results flagged for a closer look

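In 36 groups of 4 values (the members and the list scores at each age), 1 mouse was set apart from the other 3 of its group by Dixon's criterion in 5, when chance alone sets apart about 1 in 20. In 3 of them the mouse was m35 at PN98, with 42.2 FPKM of *Ccl19* against at most 4.27 in the other PN98 mice, 304 FPKM of *Ccl21a* against at most 25.6, and 2.64 FPKM of *Madcam1* against at most 0.222. *Glycam1*, *Cxcl13* and *Cr2* were highest in m35 too, but its gap to m106 was not large enough to set it apart. The other 2 were single values above 0 beside zeros, 0.0280 FPKM of *Csn2* in PN98 mouse m35 and 0.0415 FPKM of *Wap* in PN21 mouse m138.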

How the results depend on the processing

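The log2 differences of the 6 members tested stayed below 0 in all alternatives except the lymphocyte covariate, in which *Cxcl13* and *Cr2* were above 0 and *Glycam1* was −3.70. Leaving out each mouse gave −7.10 to −5.36 for *Glycam1*, and the scalings, which moved the median of all genes from −0.21 to −0.02 (median of ratios) and 0.02 (nuclear genes), gave −5.91 and −5.86. *Madcam1* was −3.64 with a pseudocount of 0.1 and −4.49 as a single transcript without a pseudocount. The counts over all genes depended on the processing. With all mice 378 genes were higher and 472 lower. Leaving out each mouse gave 100 to 677 higher and 110 to 2858 lower, the extremes being m106 and m35. Median of ratios scaling gave 767 higher and 455 lower, so that the lower share of the calls was 37.2% instead of 55.5%, and scaling to nuclear genes gave 578 and 262 (31.2%). The covariate gave 78 and 71, and single transcripts 166 and 148.

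Of the venule genes, 2 passed as reported, 0 with the covariate and 1 with a pseudocount of 0.1. Lymphoid stroma had 1 with median of ratios scaling, and homing receptors 1 with a pseudocount of 0.1. Mammary epithelium had 0 with the covariate, median of ratios and nuclear scaling, and 1 without a filter or with a pseudocount of 0.1. Under these 2 scalings only 4 of its genes were tested, against 6 as reported. Leaving out each mouse gave ranges of 0 to 5 for venules and for stroma, 0 to 8 for the lymphotoxin pathway, 0 to 6 for homing receptors, 0 to 10 for B cells, 0 to 11 for T cells, 0 to 2 for lymphatic endothelium and for mammary epithelium. The upper end came without m35 in the lymph node and lymphocyte lists.

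The age-centred r with *Glycam1*, leaving out each mouse, was 0.65 to 0.93 for venules, 0.80 to 0.97 for stroma, 0.90 to 0.99 for B cells, 0.92 to 0.98 for T cells, −0.13 to 0.13 for milk and −0.070 to 0.19 for mammary epithelium. The adjusted p was above 0.05 for all 4 lymph node and lymphocyte lists without m35, m114 or m125, and for T cells also without m1 or m106. With 7 mice the smallest possible p is 0.00694. The values near 0 changed sign, to 0.039 for mammary epithelium with a pseudocount of 0.1 and to −0.00029 and −0.049 for milk with median of ratios and nuclear scaling. The cause of these changes was not tested. No paired analysis was possible because the replicate numbers only name mice in accession order. As no depth is known, values under 1 FPKM have no stated precision.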

Other observations

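Lymphatic endothelium, which also lines the node's sinuses, was measured by 5 genes, of which 3 passed the filter. None had an adjusted p under 0.05 in limma with all 8 mice, and 2 had an unadjusted p under 0.05, beside 27.2% of all genes. *Lyve1*, the hyaluronan receptor of lymphatic vessels, was 20.3 to 38.5 FPKM at PN21 and 6.31 to 16.1 at PN98, and *Reln*, a secreted matrix protein, was 2.05 to 2.64 FPKM at PN21 and 0.247 to 1.94 at PN98. In both the ages did not overlap, and m35 was below the PN21 mice with 13.4 and 1.94 FPKM. *Mmrn1* was listed at 0 in all mice. *Ackr4*, a scavenging receptor for CCL19 and CCL21 that lymphatic endothelium carries, also had all PN98 mice below the PN21 mice. It was 1.32 to 2.34 FPKM at PN21 against 1.16 in m35 and 0.618 to 0.812 in the other PN98 mice.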
